A study of Mus musculus with 8 samples.

Results

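The genes described here are Kdm6b, which encodes the histone H3 lysine 27 (H3K27) demethylase JMJD3, and 7 genes of Polycomb repressive complex 2 (PRC2), the complex that methylates the same residue: Ezh1, Ezh2, Eed, Suz12, Jarid2, Mtf2 and Phf19. They are 8 of the 21911 protein-coding genes of the annotation used. They were chosen by name for their role, not by a measured value, but with earlier results of these data known. For each gene, every chromatin accessibility peak that overlapped the gene body or the 50 kb to each side was collected from 4 peak lists, which gave 180 peaks in 1239 kb of mm10 sequence.

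JMJD3 removes methyl groups from H3K27, a mark of silenced genes, and PRC2 places them. EZH1 and EZH2 are the alternative catalytic subunits of PRC2, EED and SUZ12 are core subunits that the catalytic subunit needs, and JARID2, MTF2 and PHF19 are accessory subunits that help bring the complex to its target sites, many of which are rich in CpG. Embryonic stem cells (ESCs) are a classical setting for PRC2, where it marks the promoters of developmental genes.

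Accessibility was mapped with ATAC-seq, an assay that uses a transposase to cut open DNA and tag it for sequencing. There were 8 libraries, 2 for each of 4 groups: mouse embryonic fibroblasts (MEFs, day 0), the same kind of MEFs at day 5 and at day 10 after retroviral delivery of Oct4, Sox2, Klf4 and c-Myc (OSKM), and ESCs. The MEFs and the infected cells were of the C57BL/6J-OG2 strain, which carries a GFP transgene under Oct4 regulatory sequence. They were wild type for Jmjd3. At both OSKM days a FLAG vector had been introduced as the control for JMJD3 overexpression. These infected cells were kept in mouse ESC culture medium with vitamin C. Of the ESC libraries, replicate 1 was labelled C57Bl6J and replicate 2 C57BL/6J-OG2. The labels placed the ESCs on feeder cells, whereas the study's methods described ESCs on gelatin in 2i/L medium. Strain, medium and cell type therefore cannot be told apart wherever ESCs were compared with the other groups. The infected populations were bulk cultures, so a site open in fewer cells and a site less open in every cell cannot be told apart either.

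Each group had 1 deposited peak list, with its 2 libraries already combined, so no list had a replicate and nothing below was tested between groups. Their lengths were 56514 peaks (MEF), 36219 (day 5), 35226 (day 10) and 48486 (ESC). A gene without a peak had none in the combined list of that group, which does not show that its chromatin was closed. A peak may have fallen below the authors' threshold or may not have been shared by both libraries. Read depth was not in the lists and is not known here. As a check of the labels, start sites of 6 fibroblast genes lay under a peak in 6, 4, 2 and 2 cases (MEF, day 5, day 10, ESC), those of 6 ESC genes in 2, 2, 2 and 6, those of 4 trophoblast or endoderm genes in 2, 1, 1 and 2, and those of 3 macrophage genes in 0, 0, 0 and 1.

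The sequences that the results below return to are shown first. The promoter stretches are the exon-free parts of the RefSeq promoter windows (GRCm38.p6, 250 bases before to 50 after a start site) of Ezh1 and Phf19, whose start sites lost their peak in some lists, and of Ezh2 and Suz12, whose start sites had a peak in every list. They are written 5′ to 3′ on the strand of the gene, the minus strand for Ezh1 (chr11:101226464-101226713), Phf19 (chr2:34914027-34914215) and Ezh2 (chr6:47595059-47595183) and the plus strand for Suz12 (chr11:79992856-79993105). Capitals mark KLF-type letters (CCACACCC, CCACGCCC, CCCCACCC or CCCCGCCC on either strand).
Ezh1 promoter: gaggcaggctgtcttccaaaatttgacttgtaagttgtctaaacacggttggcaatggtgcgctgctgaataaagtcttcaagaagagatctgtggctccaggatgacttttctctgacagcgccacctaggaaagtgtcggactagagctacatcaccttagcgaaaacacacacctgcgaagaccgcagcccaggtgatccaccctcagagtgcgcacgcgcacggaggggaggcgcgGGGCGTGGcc
Phf19 promoter: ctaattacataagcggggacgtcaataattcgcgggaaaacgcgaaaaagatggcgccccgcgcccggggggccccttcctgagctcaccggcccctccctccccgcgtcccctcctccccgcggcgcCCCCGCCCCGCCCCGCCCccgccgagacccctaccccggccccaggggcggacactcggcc
Ezh2 promoter: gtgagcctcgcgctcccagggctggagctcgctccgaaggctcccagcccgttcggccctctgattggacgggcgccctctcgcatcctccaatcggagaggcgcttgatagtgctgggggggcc
Suz12 promoter: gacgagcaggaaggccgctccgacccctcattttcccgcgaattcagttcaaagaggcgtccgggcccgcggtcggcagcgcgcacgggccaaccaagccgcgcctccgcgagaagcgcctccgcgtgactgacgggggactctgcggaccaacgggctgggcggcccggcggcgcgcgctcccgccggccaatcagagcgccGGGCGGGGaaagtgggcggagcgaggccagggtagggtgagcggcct

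The remaining windows are from sites away from a start site, each with no annotated exon. The windows hold the middle 200 bases of the widest peak of any list at the site, read from the same genome on the plus strand. They are the intronic ESC peak of Mtf2 (chr5:108077052-108077251), the OSKM-only intronic site of Jarid2 (chr13:44798167-44798366), the ESC site upstream of Jarid2 (chr13:44705630-44705829), the ESC site upstream of Eed (chr7:90007173-90007372) and the intronic site of Jarid2 that was far the strongest in every list (chr13:44869678-44869877). Capitals mark KLF-type letters, octamer letters (ATGCAAAT, bound by OCT4 and its relatives) and SOX-type letters (CCATTGT or CCTTTGT) on either strand.
Mtf2 intron, ESC only: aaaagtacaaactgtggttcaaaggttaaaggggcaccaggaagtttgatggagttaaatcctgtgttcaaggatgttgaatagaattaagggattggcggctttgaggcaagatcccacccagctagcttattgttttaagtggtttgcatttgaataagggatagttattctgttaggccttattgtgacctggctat
Jarid2 intron, OSKM days only: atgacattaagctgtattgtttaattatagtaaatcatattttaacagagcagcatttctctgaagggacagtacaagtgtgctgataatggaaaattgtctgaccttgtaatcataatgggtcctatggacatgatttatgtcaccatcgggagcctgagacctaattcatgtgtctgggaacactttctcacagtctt
Jarid2 upstream, ESC and day 10: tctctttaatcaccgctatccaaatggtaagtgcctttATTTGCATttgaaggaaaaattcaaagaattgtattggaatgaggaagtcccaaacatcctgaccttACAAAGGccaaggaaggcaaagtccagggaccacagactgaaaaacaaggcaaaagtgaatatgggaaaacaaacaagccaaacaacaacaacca
Eed upstream, ESC and day 5: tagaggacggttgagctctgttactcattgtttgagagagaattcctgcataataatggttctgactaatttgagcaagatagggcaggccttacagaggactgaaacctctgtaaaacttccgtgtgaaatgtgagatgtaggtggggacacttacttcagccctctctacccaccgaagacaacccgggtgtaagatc
Jarid2 intron, all lists: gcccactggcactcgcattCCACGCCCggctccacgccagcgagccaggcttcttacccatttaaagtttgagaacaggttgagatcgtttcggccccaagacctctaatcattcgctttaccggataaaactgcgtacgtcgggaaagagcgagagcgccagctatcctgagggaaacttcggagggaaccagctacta

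The 8 windows together held 48 peaks (MEF), 37 (day 5), 40 (day 10) and 55 (ESC). Relative to the length of each list this was 8.49, 10.2, 11.4 and 11.3 per 10000 peaks. The median gene of the 8 had 6, 4.5, 4.5 and 6 peaks, against 5, 3, 3 and 4 for the median protein-coding gene, and per 100 kb of window the 8 genes together had 3.87, 2.99, 3.23 and 4.44 peaks against medians of 3.46, 2.1, 2.34 and 3.11. Without Mtf2, the MEF and ESC lists both held 43 peaks. Higher numbers in ESCs at Eed and Ezh2 were then balanced by higher numbers in MEFs at Ezh1 and Suz12. The order of the lists also depended on their length: when every list was cut to its best-scoring 35226 peaks, the windows held 33 peaks (MEF), 36 (day 5), 40 (day 10) and 37 (ESC).

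Mtf2, Eed and Ezh2 had more peaks in ESCs than in MEFs, which was the case for 35.6% of all protein-coding genes. Ezh1 and Suz12 had more in MEFs, as did 42.2% of all genes, and Kdm6b, Jarid2 and Phf19 had the same number in both. Some of this depended on list length. With lists of equal length, Kdm6b had 6 peaks in MEFs and 3 in ESCs, and Jarid2 had 7 and 8. Suz12 then had 4 in each and Phf19 3 in each. Over all 4 lists, Jarid2, the longest of the genes, had the most peaks and Ezh2 the fewest.

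**Figure D1:**
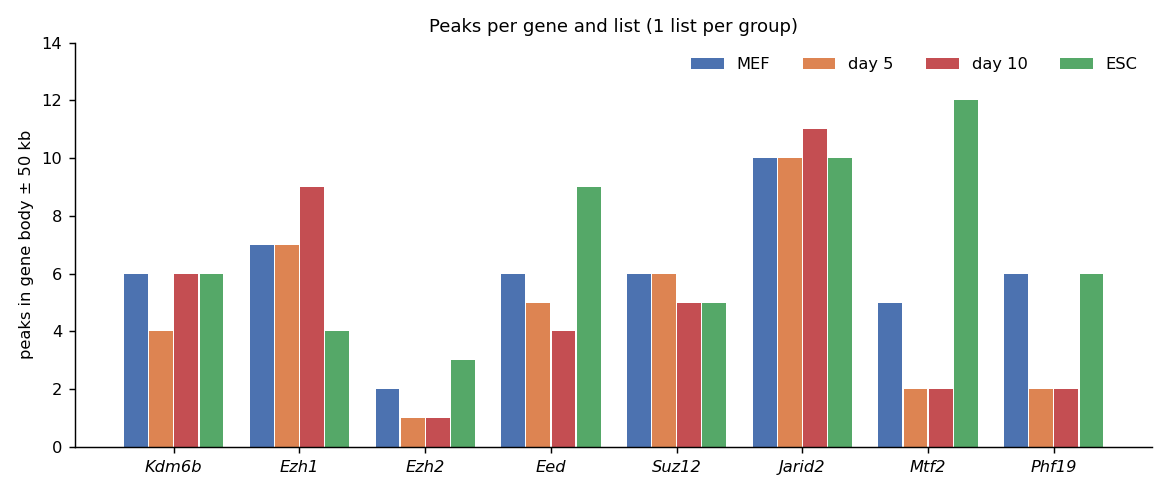
Peaks in the gene body and the 50 kb to each side (vertical axis, number of peaks) for each of the 8 genes (horizontal axis), with 1 bar per peak list and no error bars because each group had 1 list. Mtf2 rose from 5 peaks in MEFs and 2 on both OSKM days to 12 in ESCs, Phf19 had 6, 2, 2 and 6, and Ezh1 had its highest number, 9, at day 10.

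**Figure D2:**
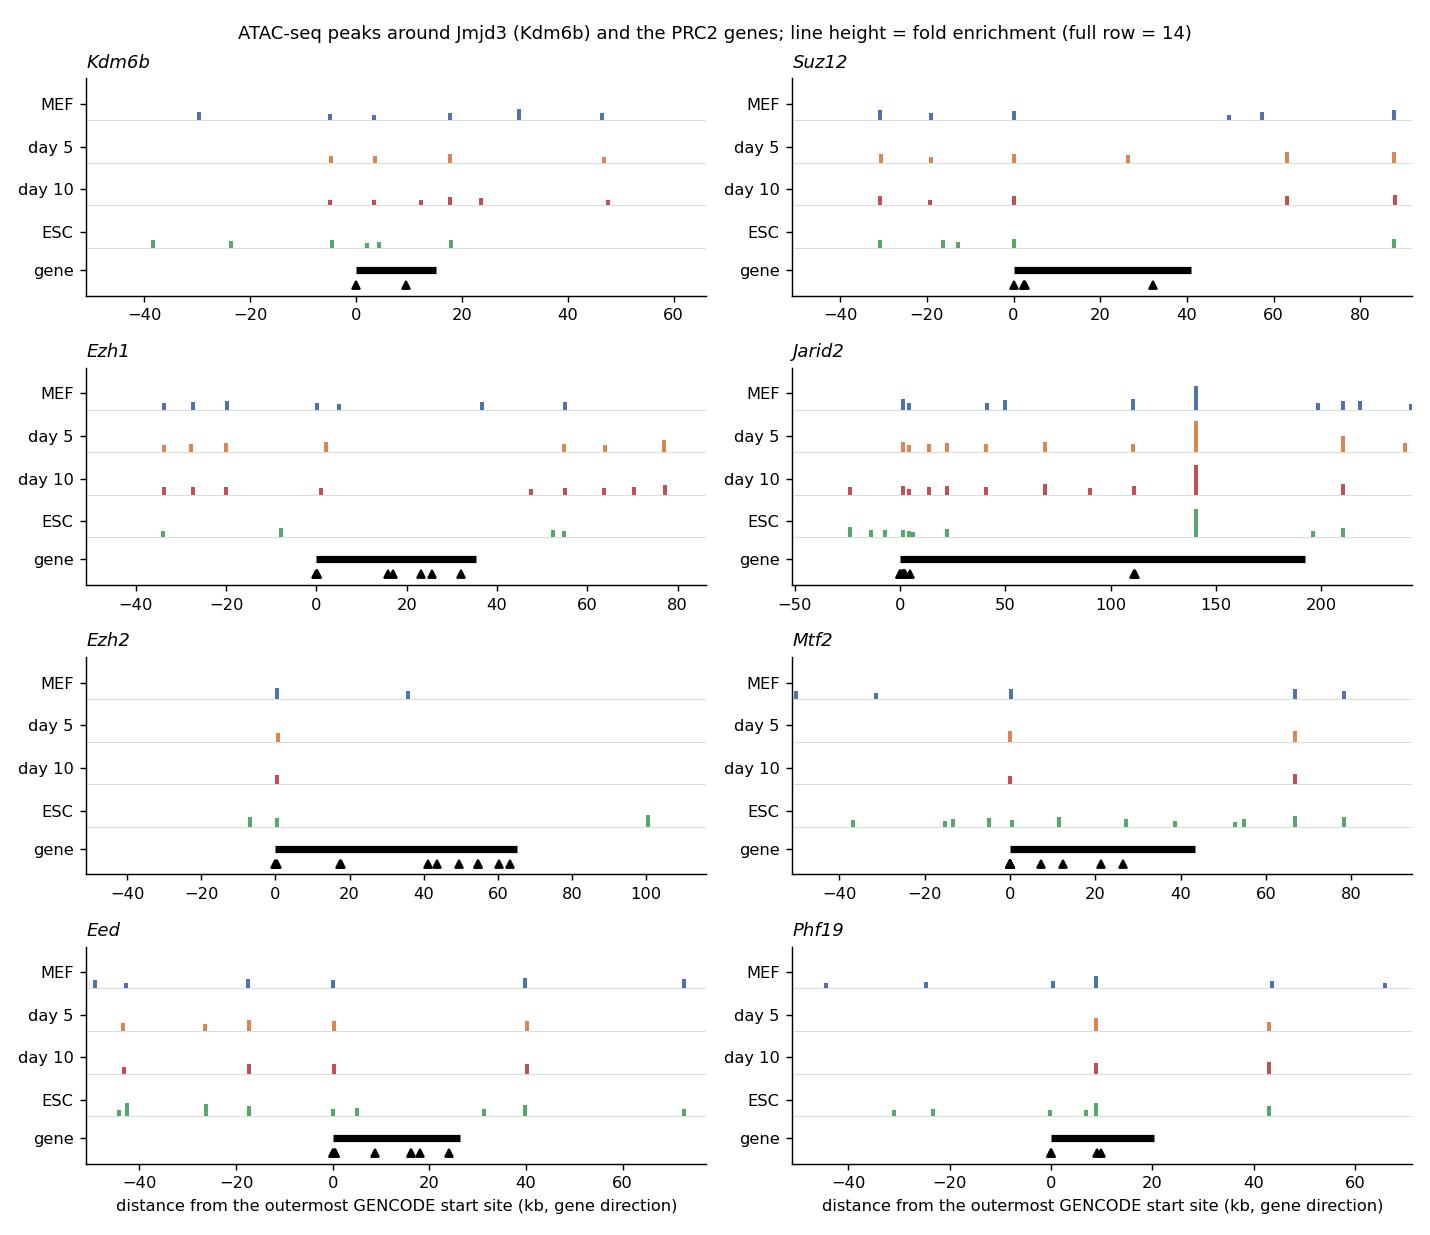
Every peak of the 4 lists around the 8 genes, placed by its distance from the outermost GENCODE start site (horizontal axis, kb in the direction of the gene). Line height is the authors' fold enrichment, with a row height of 14, the black bar is the gene body and triangles are annotated start sites. The tallest lines, 10.1 to 13.4, stand in all 4 lists at 140.3 kb inside Jarid2.

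To compare the lists site by site, peaks of any list within 400 bp of each other were merged into regions, of which the 8 windows held 88. A region was called common where both MEFs and ESCs had a peak, MEF-specific or ESC-specific where only 1 of the 2 had one, and transient where only the OSKM days had one. There were 23 MEF-specific regions (26.1%, exact 95% interval 17.3 to 36.6), 28 ESC-specific (31.8%, 22.3 to 42.6), 25 common (28.4%, 19.3 to 39) and 12 transient (13.6%, 7.25 to 22.6). Among the 79976 regions near any protein-coding gene the shares were 35.1%, 27.9%, 22.9% and 14.1%. The intervals cover counting error only and treat neighbouring regions as independent. The MEF-specific, ESC-specific, common and transient shares of all regions near genes each fell inside the matching interval, the first close to its upper end. The counts of single classes therefore did not set the loci apart from all regions near genes. The mix of classes as a whole was not tested.

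Every one of the 8 genes had at least 1 MEF-specific, 1 ESC-specific and 1 common region, where 75.1%, 75.8% and 80.1% of all genes did. Transient regions lay near 4 of the 8 genes, Kdm6b, Ezh1, Suz12 and Jarid2, against 47.8% of all genes. Of the 23 MEF-specific regions, 7 had a peak on both OSKM days and 16 had none on either, where 79.5% of all MEF-specific regions near genes had none. Of the 28 ESC-specific regions, 25 had no peak on either day, 1 had one on both, 1 at day 5 only and 1 at day 10 only. Of all ESC-specific regions near genes, 84.8% had none on either day. The exceptions were near Jarid2 and Eed. Of the 12 transient regions, 5 were shared by both days, 2 were found at day 5 only and 5 at day 10 only. Regions with a peak in all 4 lists numbered 21, and 17% of all regions near genes had one in all 4.

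**Figure D3:**
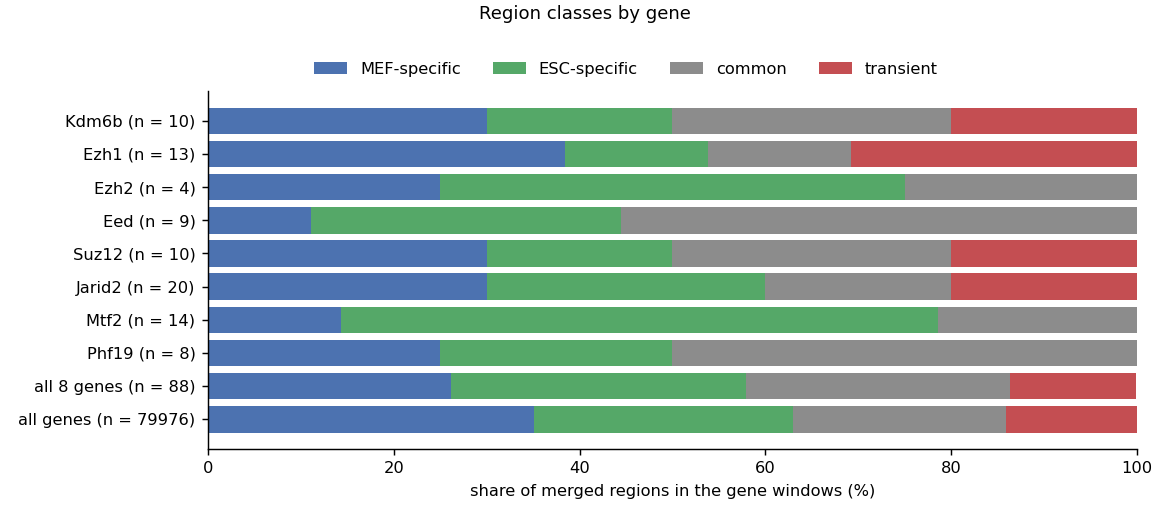
Share of merged regions in each class (horizontal axis, percent) for each gene, for the 8 genes together and for all protein-coding genes, with the number of regions beside each name. ESC-specific regions made up 9 of 14 at Mtf2, common regions 5 of 9 at Eed, and transient regions 4 of 13 at Ezh1 and 4 of 20 at Jarid2.

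A start site of a GENCODE transcript lay under a peak for 7 (MEF), 6 (day 5), 7 (day 10) and 6 (ESC) of the 8 genes. Over all protein-coding genes the shares were 60%, 52%, 56% and 55.8%. Eed, Ezh2, Suz12, Jarid2, Mtf2 and Phf19 had a start-site peak in all 4 lists, as did 46.7% of all genes, and Kdm6b was the only one with none in any list, as were 35.5% of all genes. Several of these calls depended on which start sites were used, as described gene by gene below.

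Kdm6b lies on chromosome 11 at 69398508 to 69413675 (minus strand), with 2 annotated start sites in GENCODE. Its window held 6 peaks (MEF), 4 (day 5), 6 (day 10) and 6 (ESC). The GENCODE start of the coding transcript, at 69413675, was in a gap between 2 regions that were open in every list. The upstream one (69417347 to 69419745) was 4.87 kb before that start site and had a fold enrichment over background, as the authors computed it, of 2.8 (MEF), 2.72 (day 5), 2.44 (day 10) and 3.26 (ESC). The downstream one (69408667 to 69411991), mostly intronic with 115 bp of exon, had folds of 2.4, 2.75 and 2.35 in the first 3 lists. In ESCs it was split into a peak of 1161 bp with a fold of 2.77 and a weak one of 406 bp with a fold of 2.32 that ranked in the last part of the list, at 98.7% from the top by score.

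Both regions were long and shallow, and their width was largest in MEFs and at day 10. The upstream peak was 2109, 1709, 2346 and 1572 bp wide and the downstream one 3309, 2799 and 3286 bp before the split in ESCs. In RefSeq, the curated start site of Kdm6b, at 69416194, also lay in the gap, but a predicted transcript began at 69418140, under the upstream peak of all 4 lists, and another at 69409629, under the downstream peak of all 4. With RefSeq start sites Kdm6b therefore had a start-site peak in every list. The lists do not show which of these sites was used as a promoter.

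**Figure D4:**
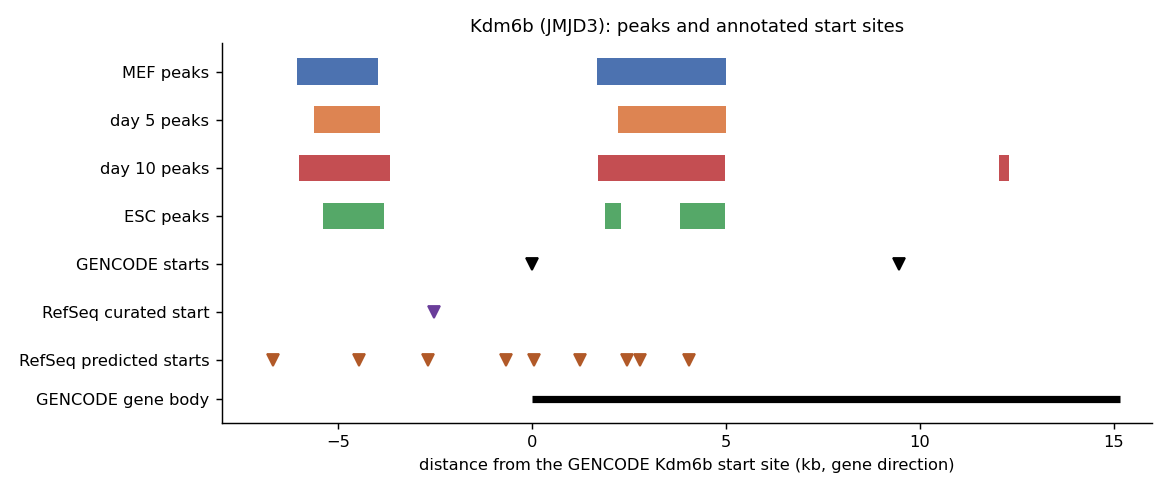
Peaks of each list and annotated start sites around the 5′ end of Kdm6b, by distance from the GENCODE start site (horizontal axis, kb in the direction of the gene). The GENCODE start and the curated RefSeq start, 2.52 kb further upstream, lie between 2 stretches covered in all 4 lists, while the predicted RefSeq start 4.46 kb upstream lies inside the first.

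The other Kdm6b regions changed between lists. The region at the shared promoter of Cyb5d1 and Naa38 had a peak in all 4 lists, with folds of 3.23, 3.93, 3.4 and 3.57. It lay 17.8 kb from the Kdm6b start in the direction of transcription. MEFs had peaks of their own at 69382539 to 69383256 (fold 4.65), the strongest in the window, and at 69443019 to 69443687 (fold 3.71). ESCs had narrow peaks 23.6 and 38.4 kb upstream with folds of 3.19 and 3.27, the second only 64 bp wide. Day 10 had 2 peaks found in no other list: 1 downstream at 69389837 to 69390463 with a fold of 3.24, and 1 of 237 bp within the gene body with a fold of 2.3. A region near Chd3, 47.1 kb downstream of the start, was open in MEFs (fold 3.06) and on both OSKM days (2.62 and 2.18) and not in ESCs. Kdm6b thus kept the regions on both sides of its 5′ end in all lists, while 6 of its 8 other regions were found in 1 list each.

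The catalytic subunit genes differed from each other. Ezh2 (chromosome 6, 47530139 to 47595341, minus strand) had the sparsest window, with 2, 1, 1 and 3 peaks. Its start-site region had folds of 4.75 (MEF), 3.54 (day 5), 3.82 (day 10) and 3.63 (ESC), and a width between 1493 and 1592 bp in each list. It was the only site in the Ezh2 window with a listed peak on either OSKM day. MEFs had 1 more peak in an intron, 35.7 kb from the start site (fold 3.64). ESCs had 2 more, upstream at 47602075 to 47602383 (fold 4.29) and beyond the 3′ end at 47494498 to 47495097 (fold 5.22), where the nearest start site was that of Cul1. The soft-masked repeat content of the ESC regions was 77.7% and 62.3%.

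Ezh1 (chromosome 11, 101191115 to 101226463, minus strand), the paralogue that is more abundant in non-dividing tissues, showed the reverse distribution, with 7 peaks (MEF), 7 (day 5), 9 (day 10) and 4 (ESC). Its start site lay under a peak in MEFs (fold 2.93) and at day 10 (fold 2.97), and not at day 5 or in ESCs. Of all genes, 1.47% had this combination of lists. The day 5 peak, with a fold of 4.34, ran from 101224108 to 101224746 and ended inside the gene, short of the start site, whereas the day 10 peak was 2127 bp wide and spanned both. In MEFs the peak was only 548 bp wide and stood at 75.5% from the top of its list, so it was lost when the lists were cut to equal length. The call at the Ezh1 start site thus rested on where a peak ended and, in MEFs, on a low-ranking peak.

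The gain of Ezh1 peaks at day 10 lay downstream, towards Tubg2 and Cntnap1, where 4 transient regions were found, a number that 4.6% of all genes reached or passed. The strongest, at 101148812 to 101149896, had a fold of 5.07 at day 5 and 4.27 at day 10. The others had folds of 3.25 (at the Tubg2 start site, day 10), 3.01 and 2.73 (day 5 and day 10) and 2.39 (day 10). Upstream, the regions at the start sites of Ramp2 and Vps25 had peaks in MEFs and on both OSKM days and none in ESCs. The only upstream peak specific to ESCs, 7.82 kb before the Ezh1 start, had a fold of 4.02. These windows are gene-dense, and a peak in them need not belong to Ezh1.

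Eed (chromosome 7, 89954654 to 89980983, minus strand), whose product binds methylated H3K27, had 6, 5, 4 and 9 peaks. The start site was open in all lists, with folds of 3.8 (MEF), 4.22 (day 5), 3.93 (day 10) and 3.14 (ESC). An upstream series of regions, at 17.3, 26.3, 43.3 and 49.2 kb, differed more. The region at 17.3 kb was open in all lists, with folds of 4.24, 4.57, 3.99 and 4.39. The region at 26.3 kb (90006895 to 90007649) was absent from the MEF list, had a weak peak of 227 bp at day 5 (fold 3.14), none at day 10 and a peak of 755 bp in ESCs with a fold of 5.31.

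The Eed region at 43.3 kb had a peak in every list, but with a fold of 2.46 (MEF), 3.39 (day 5), 2.84 (day 10) and 5.76 (ESC). The ESC value is that of the stronger of 2 peaks, 614 bp wide and at 2.7% from the top of the list. The other ESC peak, counted separately, was 429 bp wide with a fold of 2.5, at 87.1% from the top. The day 5 and day 10 peaks, 1918 and 1912 bp wide, each overlapped both ESC peaks. The MEF peak there was among the weakest of its list, at 97.1%. The region at 49.2 kb was found in MEFs only (fold 3.44). At 26.3 and 43.3 kb upstream Eed thus had its highest folds in ESCs, while its start site had its lowest fold there. The region at the neighbouring start site of Hikeshi had a peak in every list, with folds of 4.28, 4.14, 3.91 and 4.83.

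Suz12 (chromosome 11, 79993106 to 80034123, plus strand), which holds the core of PRC2 together, had nearly constant numbers, with 6, 6, 5 and 5 peaks. Its start site had folds of 4.1, 3.83, 4.04 and 3.83, the narrowest range of the start-site regions present in all 4 lists. The regions at the neighbouring start sites of Utp6 and Crlf3 also had a peak in every list. Differences lay inside the gene and further out, on both sides. The region inside the gene, at 80019225 to 80019710, had a peak at day 5 only (fold 3.42). MEFs alone had peaks at 80042602 to 80043050 (fold 2.45) and 80049848 to 80050756 (fold 3.65), and the OSKM days alone had 80055914 to 80056560, with a fold of 4.77 at day 5 and 3.98 at day 10. ESCs alone had 2 upstream peaks with folds of 3.31 and 2.42, of which 85.8% and 72.7% was repeat sequence.

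Jarid2 (chromosome 13, 44729474 to 44921643, plus strand), the substoichiometric subunit that guides PRC2 in ESCs, had 10, 10, 11 and 10 peaks in a window of 292.2 kb. Its 20 regions were spread over all classes: 6 MEF-specific, 6 ESC-specific, 4 common and 4 transient. The number of peaks was reached or passed by 9.68%, 2.06%, 1.73% and 6.72% of all genes in the 4 lists. Per 100 kb it was 3.42, 3.42, 3.76 and 3.42, against 3.87, 2.99, 3.23 and 4.44 for the 8 genes together. The medians of all genes were 3.46, 2.1, 2.34 and 3.11. The nearly constant totals of the full lists hid a turnover of sites. With lists of equal length, Jarid2 had 7 (MEF), 10 (day 5), 11 (day 10) and 8 (ESC) peaks.

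The Jarid2 start sites from 44730774 to 44730859 lay under a peak in all lists (folds 4.4, 4.25, 3.91 and 3.13). A second region at 44733119 to 44734076 was also open in all lists (folds 2.76, 2.95, 2.42 and 2.75), but its GENCODE start site, at 44734040, lay under the MEF and day 10 peaks only. The outermost annotated start, of a non-coding transcript at 44729474, had no peak in any list. A region 110.8 kb into the gene had a peak in MEFs (fold 4.4), at day 5 (3.38) and at day 10 (3.8), and none in ESCs. The internal start site there, at 44840691, lay under the MEF and day 10 peaks, and the day 5 peak ended at 44840682, just short of it. Within introns, the regions at 44742762 to 44743579 (folds 3.5 and 3.55) and 44797956 to 44798577 (folds 4.57 and 4.83) were found at day 5 and day 10 and in neither MEFs nor ESCs. One more transient region within the gene was found at day 10 only (fold 3.02).

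Upstream of Jarid2, a series of 3 ESC-specific regions lay 23.8, 13.6 and 7.10 kb before the outermost start. The farthest, at 44705213 to 44706158, had a fold of 4.35 in ESCs and already 3.53 at day 10, and the other 2 were found in ESCs only (folds 3.37 and 3.18). The intronic ESC-specific region at 44751520 to 44752312 was open on both OSKM days, with folds of 3.91 at day 5, 3.77 at day 10 and 3.48 in ESCs. It was the only ESC-specific region of the 28 with a peak on both days. By count, Jarid2 was the gene with the most regions that were absent from MEFs and present on an OSKM day. This count was not corrected for window length, and Jarid2 had the longest window. It had 4 transient regions in 292.2 kb, and Ezh1 had 4 in 135.3 kb.

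The strongest site of all 8 loci was an intronic region of Jarid2 of 422 bp, 44869567 to 44869988, 140.3 kb into the gene. Its fold enrichment was 10.1 (MEF), 13.4 (day 5), 13 (day 10) and 12.2 (ESC), and it stood within the first 0.0796%, 0.0387%, 0.0369% and 0.033% of the lists by score. Its width, 422, 402, 416 and 421 bp, hardly varied. Soft-masked repeats made up 2.61% of it, and its GC content was 55.5%. No start site was annotated there, and why it was so strong was not tested.

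Among the accessory subunits that bind unmethylated CpG-rich DNA, Mtf2 (chromosome 5, 108065674 to 108109004, plus strand) showed the widest difference between lists, with 5 peaks (MEF), 2 (day 5), 2 (day 10) and 12 (ESC). Of all genes, 2.66% had 12 or more peaks in ESCs, and 1.78% had 9 or more ESC-specific regions. With lists of equal length Mtf2 still had 7 peaks in ESCs against 2 in each other list. None of its 9 ESC-specific regions had a peak on an OSKM day, as was so for 84.8% of such regions near all genes.

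The highest of them, in an intron at 108076418 to 108077885, had a fold of 4.35 and stood at 3.59% from the top of the ESC list. Upstream, 4 ESC-specific regions lay within 36.8 kb of the start, with folds of 2.72, 2.35, 3.54 and 3.63. Inside and beyond the gene, the other 4 had folds of 3.13, 2.58, 2.24 and 3.31. Of the 9, 3 stood at 95.4% or further down the ESC list, that is among its weakest peaks. Repeats made up 46.9% of the strongest and more than 50% of 3 others, and the part of repeats in the peak number was not tested.

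ESCs had the most peaks around Mtf2 but the lowest fold at its start site. The start-site peak had a fold of 4.52 (MEF), 4.39 (day 5), 3.72 (day 10) and 2.77 (ESC). In ESCs it stood at 71.6% from the top, and it was lost when the list was cut to equal length. The region at the shared promoter of Tmed5 and Ccdc18, 66.8 kb away, stayed between 4.2 and 4.66 in the 4 lists. The 2 MEF-specific regions near Mtf2 had folds of 3.34 and 2.45.

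Phf19 (chromosome 2, 34893757 to 34914026, minus strand), a relative of Mtf2, had 6, 2, 2 and 6 peaks. With lists of equal length it had 3, 2, 2 and 3. Its outer start sites, from 34913976 to 34914026, lay under a peak in MEFs (fold 3.02) and ESCs (fold 2.71) and on neither OSKM day. By RefSeq start sites, 2% of all genes had this combination. Both peaks were low in their lists, at 61.2% and 93.4% from the top. A second region 8.85 kb into the gene, at 34904699 to 34905655, was open in all lists with folds of 5.51, 5.61, 4.64 and 5.83 and stood within the first 1.63% of every list. It covered the GENCODE start site of a non-coding transcript at 34904907, which alone gave Phf19 its start-site peak at day 5 and day 10. Only this region and the one at the Psmd5 start site had peaks near Phf19 on the OSKM days. The strongest peaks found in 1 list alone were weak, with a fold of 2.5 in MEFs at the Traf1 start site and of 2.74 in ESCs within the gene.

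**Figure D5:**
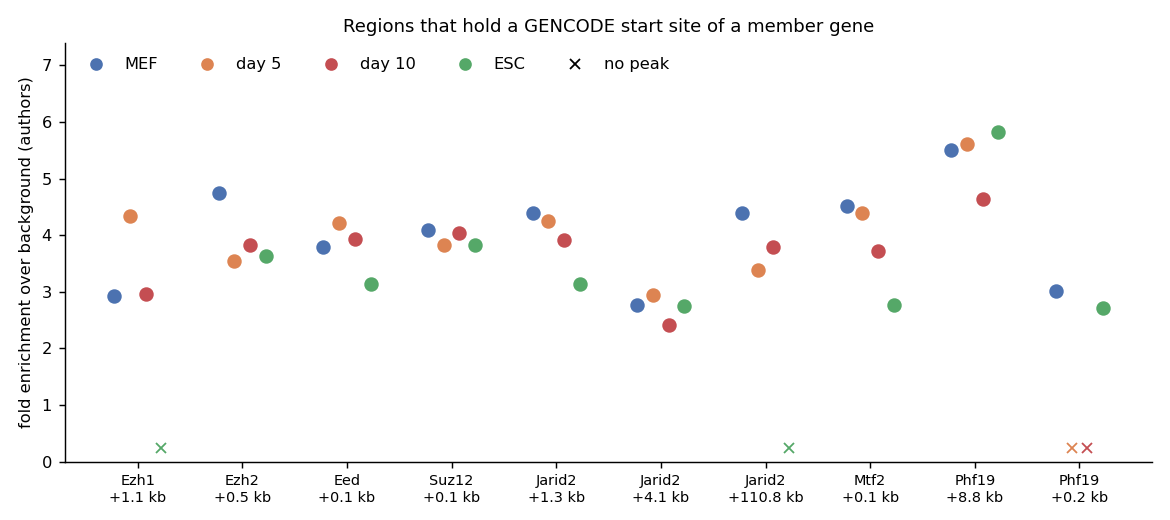
The authors' fold enrichment over background (vertical axis) for each region that holds a GENCODE start site of the 8 genes (horizontal axis, with the distance of the region's middle from the outermost start site), 1 point per list and a cross where the list had no peak. The day 5 peaks of Ezh1 and of the Jarid2 regions at 4.12 and 110.8 kb, and the ESC peak of the former Jarid2 region, lie in their regions but do not reach the start site. The Phf19 region at 8.85 kb has folds of 4.64 to 5.83, while the region at its outer start sites has no peak at day 5 and day 10.

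By RefSeq start sites, 8, 6, 7 and 7 of the genes had a start-site peak, against 59%, 51%, 55.1% and 54.2% of 21774 genes. The gain was Kdm6b in every list and the loss was Phf19 on both OSKM days. The outermost GENCODE start site lay under a peak in both MEFs and ESCs for Eed, Ezh2, Suz12, Mtf2 and Phf19. The ESC fold there was below the MEF fold in 5 of 5 (3.14 against 3.8, 3.63 against 4.75, 3.83 against 4.1, 2.77 against 4.52 and 2.71 against 3.02), as it was for 52.1% of the 9538 genes with such a pair of peaks. This pattern was singled out after the values were seen and was not tested. Folds of different lists were computed against each list's own background, and the median fold of all peaks was 3.32 (MEF), 3.72 (day 5), 3.36 (day 10) and 3.48 (ESC).

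The RefSeq promoter table held 9 windows of 300 bases for 7 of the 8 genes, without Kdm6b. The main promoters held between 17 and 41 CpG dinucleotides (Eed 17, Ezh1 23, Jarid2 24, Mtf2 30, Ezh2 31, Phf19 38 and Suz12 41), against a median of 7 over 32851 promoters. The promoters of Phf19 and Suz12, both rich in CpG, behaved differently in the lists, with all 300 bases covered in every list for Suz12 and 300, 0, 0 and 300 for Phf19. For Ezh1, 233 bases were covered in MEFs and 194 at day 10. The inner Mtf2 promoter, with 2 CpG, was covered in no list. KLF-type letters were found in the windows of Phf19 (3 overlapping matches), Ezh1 (2), Mtf2, Suz12 and Jarid2 (1 each) and not in those of Ezh2 and Eed, and 29.7% of all promoters had a match.

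None of the promoter windows held AP-1-type letters (TGACTCA or its other form TGAGTCA), octamer or SOX-type letters, which 5.2%, 1.74% and 9.28% of all promoters held. In each of the 88 regions, the middle 200 bases of the widest peak were searched on both strands. AP-1-type letters were in 0 of 23 MEF-specific regions, where 23% of the 36994 MEF-specific regions of the genome had them, and in 1 of 88 regions altogether, a common region downstream of Jarid2. KLF-type letters were in 8 of 25 common regions (20.2% of all common regions) and in 3 of 12 transient ones (10.9%). SOX-type letters were in 4 of 28 ESC-specific regions (14.5%) and octamer letters in 2 of 28 (3.18%). The 2 ESC-specific regions with octamer letters were 1 of 3 upstream ones of Jarid2 and 1 of 2 of Suz12, the latter 85.8% repeat sequence. Both also held SOX-type letters, as the capitals in the Jarid2 sequence above show. Octamer letters were also in 1 of 12 transient regions (4.11% of all), near Ezh1, which held no SOX-type letters.

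The strongest sites did not share these letters. The intronic ESC region of Mtf2, the OSKM-only region of Jarid2 and the ESC region upstream of Eed held none of them in the windows shown, and the strongest Jarid2 site held 1 KLF-type match. Such a match is only a run of letters, and its absence from a window does not bear on whether a factor bound. Of the 28 ESC-specific regions, 8 were more than 50% repeat sequence, as were 18.3% of all ESC-specific regions. None of the other 60 regions was, against 2.35% of MEF-specific, 0.714% of common and 5.94% of transient regions genome-wide.

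The other genes of these pathways mostly had open start sites in every list. Of 11 other PRC2 and H3K27 demethylase genes, 10 had a start-site peak in all 4 lists, and the exception was Lcor, the locus of a PRC2 accessory protein, which lacked one at day 5 and in ESCs, as Ezh1 did. Kdm6a, the X-linked H3K27 demethylase and paralogue of Kdm6b, had a start-site peak in all 4 lists with 1, 2, 1 and 2 peaks in its window. Of 19 genes of Polycomb repressive complex 1, 15 had a start-site peak in every list. Bmi1 and Pcgf2, which encode alternative subunits of that complex, lacked it in ESCs only, Cbx2, which encodes a subunit that reads methylated H3K27, lacked it in MEFs only, and Yaf2, which encodes a relative of RYBP, had none. Of 10 genes for partners of JMJD3, 9 had one in every list, and the exception was the chromatin remodeller gene Chd7, which also lacked it at day 5 and in ESCs.

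Of the 47 other genes in these lists, those with peak numbers most like Kdm6b over the 4 lists were Cbx8 (6, 5, 5 and 5 peaks), Cbx2 (6, 4, 4 and 5) and Pcgf3 (5, 4, 4 and 6), each with a summed absolute difference of 3 peaks. Those most like Jarid2 were Kdm2b (8, 7, 8 and 9) and Rbbp4 (9, 8, 8 and 7), both with a difference of 9, and Aebp2 (11, 11, 9 and 16) with 10. Likeness here is of peak numbers alone, which also depend on gene length and on neighbouring genes.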

How the data were processed

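ATAC-seq peak lists of 8 libraries in 4 groups were used, with groups taken from the sample titles. The authors mapped reads to mm10 with bowtie2 (version 2.2.0 in the submitters' processing notes), removed low-quality, multiply mapped and mitochondrial reads and deposited 1 list per group for both libraries. The peak caller is not given in the sources used here, nor is a shift of read ends for the transposase. Each deposited peak carries a score, the ratio (fold) of its signal to background, and a q-value as −log10. The −log10 of the p-value, also deposited, was not used. The score was 10 times −log10 q, rounded down, for nearly all peaks, and the lowest −log10 q was 1.01 to 1.02. Peak names are those of replicate 1, and some occur more than once, so a listed peak may be the part of a replicate 1 peak that replicate 2 shares, with the fold and score of replicate 1.

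From these, peaks overlapping a GENCODE (release 21 for mouse) gene body or 50 kb to each side by at least 1 bp were counted with Python 3.11.15 (pandas 2.3.3, numpy 2.4.6, SciPy 1.17.1). Peaks within 400 bp were merged. Counting was tested on simulated data. Intervals are exact binomial with 95% coverage. RefSeq start sites, promoters and genome sequence were of GRCm38.p6. The members and gene lists were chosen with earlier results of these data known. The text names all 8 genes, their start-site regions and strongest region per class, the listed genes that lack a start-site peak, and others where singled out after their values were seen. Alternatives were other windows, thresholds, list sizes, overlap rules, start sites and merge distances. No test between groups was made, since each list is 1 sample.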

Additional observations from a re-analysis of the deposited data

How the results depend on the processing

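Of 80 recounted values, 73 stayed within 1.5 times the reported one. Using the higher-scoring 50% of each list gave 29 peaks in MEFs, 22 at day 5 and 29 in ESCs, with 14 MEF-specific, 14 ESC-specific and 15 common regions, and a window of 25 kb gave 13 MEF-specific regions. Fewer peaks or a shorter window are the construction of these alternatives. RefSeq start sites, coding transcripts only and the count without Mtf2 were chosen after seeing the data. With coding transcripts only, 7, 5, 6 and 6 genes had a start-site peak. With 1 start site per gene, 6, 4, 5 and 5 genes did, since Jarid2 dropped out of every list and Phf19 out of the day 5 and day 10 lists. Leaving out a replicate was not run, because both libraries of a group were deposited as 1 list. No paired analysis was possible because the result comes from no test and the lists carry no replicate columns. Read depth is unknown. A missing peak in the shorter day 5 and day 10 lists may be a matter of depth, of threshold or of a peak not shared by both libraries, which was not tested.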
